A study of Mus musculus with 11 samples.

Results

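The antioxidant, glutathione and thioredoxin genes of mouse lumbar spinal cord were taken from the deposited table by name. A row was a member when its symbol began as that of a glutathione S-transferase, a glutathione peroxidase or a peroxiredoxin, or when it was one of 20 named genes, from Sod1 and Cat to Nfe2l2 and Keap1. This gave 58 members of 20888 rows. The rule uses names only. The members were 22 glutathione S-transferases, 9 glutathione peroxidases, 7 peroxiredoxins, 8 thioredoxin and glutaredoxin genes, 5 genes of glutathione synthesis and recycling, 4 for superoxide dismutases and catalase, and 3 of the NRF2 pathway.

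RNA was sequenced from the lumbar cord of C57BL/6 mice collected at 10 months, in a study of MFN2. Mutations of this mitofusin gene cause an inherited neuropathy of axons, Charcot-Marie-Tooth disease type 2A. There were 5 libraries from mice with MFN2-R94Q and MFN1 together (MFN2-R94Q:MFN1), 3 from mice with MFN2-R94Q, the mutant mitofusin alone, and 3 from nontransgenic mice (nTg). All groups share the strain and the age. The sources used here do not give the promoters, species or founder lines of the transgenes. Nor do they say whether transgene reads were counted in the rows Mfn1 and Mfn2, which did not pass the test in any comparison. Mfn1 averaged 24.96 ± 0.552, 26.3 ± 0.419 and 24.9 ± 0.675 RPKM, and Mfn2 averaged 45.2 ± 1.56, 46.3 ± 1.39 and 45.9 ± 1.24 RPKM, in MFN2-R94Q:MFN1 (n = 5), MFN2-R94Q (n = 3) and nTg (n = 3) mice (mean ± SD).

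Values are RPKM, reads normalised to gene length and sequencing depth, as the authors deposited them. The depth recovered from the table was 30.5 to 71.8 M reads a library. MFN2-R94Q replicate 2 stood apart from the other libraries. It lay at 27.0 on the first principal component, which held 39.6% of the variance, against 6.2 and 8.05 for the other MFN2-R94Q libraries and -8.23 to -2.48 for the remaining 8 libraries. Calls of members that ended or appeared without it are named. The summed markers of lumbar cord (Hox genes of the lumbar level and cholinergic genes) were present in all libraries. They were at 106.6 to 113.5 RPKM in MFN2-R94Q:MFN1 mice, 98.0 to 115.8 RPKM in MFN2-R94Q mice and 116.6 to 117.7 RPKM in nTg mice. Every transgenic library was thus below every nTg library.

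Cells remove superoxide with superoxide dismutases, which turn it into hydrogen peroxide. Catalase, the glutathione peroxidases and the peroxiredoxins then remove the peroxide. For the peroxidases and peroxiredoxins, glutathione and thioredoxin supply the electrons. The reductases of glutathione and thioredoxin draw electrons in turn from NADPH. The transcription factor NRF2, encoded by Nfe2l2, drives many of these genes through antioxidant response elements, and KEAP1 marks NRF2 for degradation. In the spinal cord the glutathione system is best known from astrocytes, which supply neurons with glutathione precursors.

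Promoter sequence was examined because many members are textbook NRF2 targets. The RefSeq window of 300 bases, 250 before and 50 after the transcription start (GRCm38.p6), was available for 50 of the 58 members. The motif searched was the antioxidant response element core TGACNNNGC, on either strand, so that GCNNNGTCA marks a match on the other strand. It overlaps the AP-1 motif TGACTCA, which 1 of the members' matches holds. A match was present in at least 1 window for 10 of these 50 members (20%), against 3781 of 27025 genes with such a window (14.0%). Some genes have several windows. Counted by window, 10 of the members' 68 windows held a match (14.7%), against 4071 of all 32851 windows (12.4%). Matches were found in Gsta3, Nfe2l2, Srxn1, Gstm5, Gstm7, Gclm, Prdx1, Txnrd1, Sod1 and G6pdx. They were present for 4 of the 10 members that passed the test below in at least 1 comparison and have a window, and for 6 of the 33 tested members that did not pass (18.2%). These are descriptions of the sequence, with no measure of binding. The 4 that passed are printed, 5′ to 3′ along the gene, with the match in capitals. Of these, Prdx1 and Nfe2l2 did not pass in any comparison without MFN2-R94Q replicate 2. Whether the core has a part in the calls was not tested.
Prdx1, chr4:116685349-116685648, plus strand: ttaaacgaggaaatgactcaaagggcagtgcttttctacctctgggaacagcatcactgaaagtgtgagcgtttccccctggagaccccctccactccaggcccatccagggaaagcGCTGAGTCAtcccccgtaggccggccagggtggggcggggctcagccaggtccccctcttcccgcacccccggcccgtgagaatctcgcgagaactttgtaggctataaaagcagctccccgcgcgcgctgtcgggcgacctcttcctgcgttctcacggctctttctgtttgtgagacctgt
Gstm7, chr3:107931565-107931864, minus strand: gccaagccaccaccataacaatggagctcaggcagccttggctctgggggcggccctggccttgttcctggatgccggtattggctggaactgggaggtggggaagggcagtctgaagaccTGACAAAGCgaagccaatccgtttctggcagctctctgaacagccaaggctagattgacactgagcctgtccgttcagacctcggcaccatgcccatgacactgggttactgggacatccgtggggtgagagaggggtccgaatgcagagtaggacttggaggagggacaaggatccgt
Gstm5, chr3:107895604-107895903, plus strand: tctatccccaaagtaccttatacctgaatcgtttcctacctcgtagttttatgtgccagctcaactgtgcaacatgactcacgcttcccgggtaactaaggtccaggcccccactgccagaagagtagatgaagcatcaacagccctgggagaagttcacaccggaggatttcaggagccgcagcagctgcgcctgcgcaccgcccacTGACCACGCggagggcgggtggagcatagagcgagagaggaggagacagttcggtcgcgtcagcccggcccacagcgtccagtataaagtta
Nfe2l2, chr2:75704614-75704913, minus strand: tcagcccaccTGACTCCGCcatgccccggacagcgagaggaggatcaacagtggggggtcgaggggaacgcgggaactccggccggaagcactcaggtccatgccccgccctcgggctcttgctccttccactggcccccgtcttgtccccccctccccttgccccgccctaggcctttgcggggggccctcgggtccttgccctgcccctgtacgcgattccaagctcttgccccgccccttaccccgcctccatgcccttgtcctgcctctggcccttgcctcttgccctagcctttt
Counted from the RefSeq start, the Prdx1 match lay 133 bases before it on the opposite strand and is the one that holds TGACTCA. The matches of Gstm7, Gstm5 and Nfe2l2 lay 129, 42 and 240 bases before their RefSeq starts, on the strand of the gene. The GENCODE M21 annotation places Gstm7 from 107926334 to 107931817 on the minus strand. By that annotation the Gstm7 match lies within the gene and not before it.

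Levels differed widely between members. Sod1, the cytosolic superoxide dismutase, was highest at 249 RPKM on average over the 11 libraries. Gstp1, the pi-class glutathione S-transferase, followed at 177 RPKM. Prdx5 averaged 171 RPKM, Gstm1 162 RPKM, Gpx4 144 RPKM, Gstm5 104 RPKM and Prdx6 103 RPKM. These 7 genes were the members at 100 RPKM or more, and 32 members were at 10 RPKM or more. Each library's value is drawn in the plot of levels. A gene was tested when 3 or more libraries reached 0.5 RPKM. The 9 members that did not were Gpx2, Gpx2-ps1, Gpx5, Gpx6, Gsta1, Gsta2, Gstm3, Gstt4 and Prdx6b. Their highest value in any library was 0.375 RPKM. The other 49 members were tested.

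**Figure D1:**
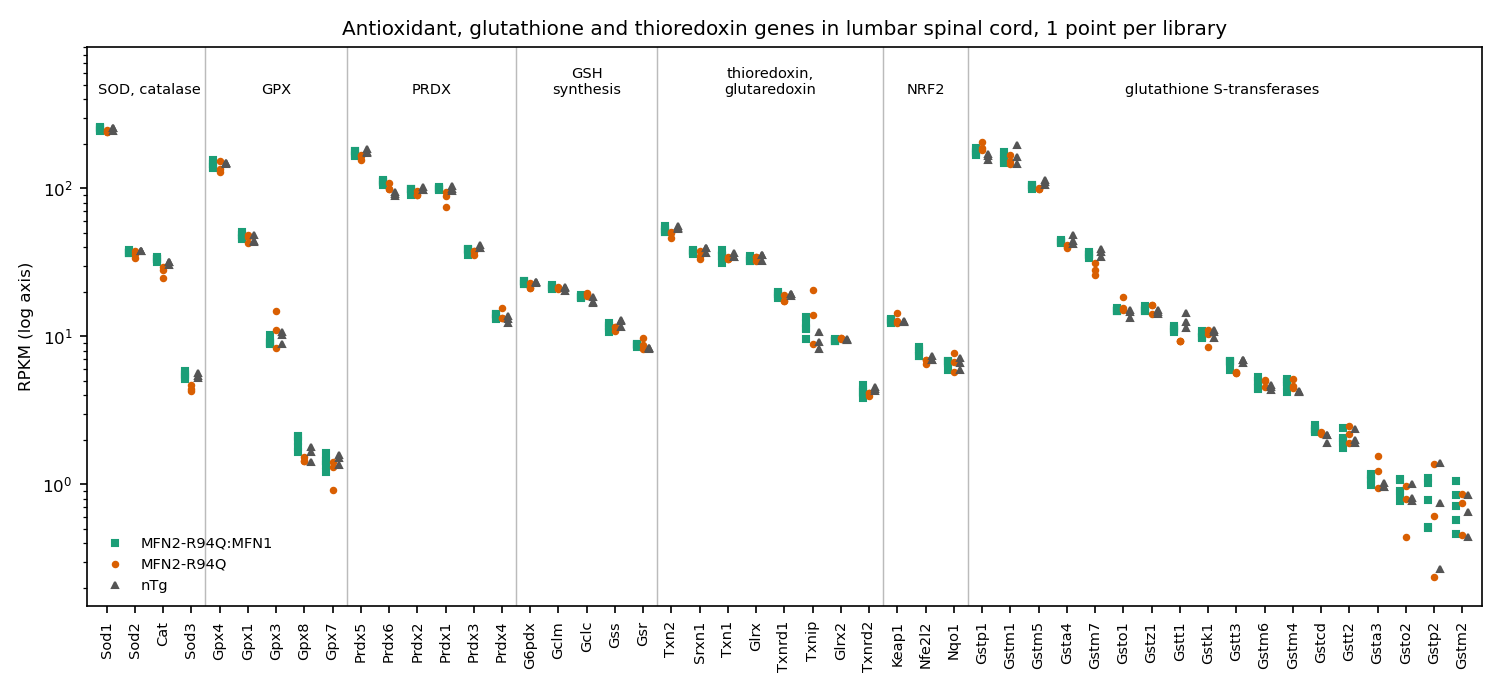
RPKM of the 49 tested members on a log axis, 1 point per library, by role and in order of their mean. Squares are MFN2-R94Q:MFN1, circles MFN2-R94Q and triangles nTg. Members span from Sod1 at 249 RPKM on average to genes under 1 RPKM, and the groups of most members lie close together.

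The first question is how the members differ in mice with the mutant alone. Against nTg mice, 3 of the 49 tested members were higher in MFN2-R94Q mice (Gstp1, Gclc and Prdx6), where 7.5% of all 14347 genes tested were higher. Lower in MFN2-R94Q mice were 9 (Gstt1, Gstm7, Sod3, Gstt3, Gstm5, Txn2, Cat, Gsta4 and Prdx1), where 10.4% of all genes were lower. The median difference was -0.07 over the members and -0.0024 over all genes, on the scale of log2(RPKM + 0.5) used for all fold changes here. Calls are at an adjusted p under 0.05 in limma with Benjamini-Hochberg adjustment over all genes. Without MFN2-R94Q replicate 2 the counts were 1 higher and 10 lower, where 4.31% and 6.98% of all genes were called. Without nTg replicate 2 they were 1 higher and 4 lower, where 465 and 748 of all 14326 genes tested were called. Without MFN2-R94Q replicate 1 they were 6 higher and 8 lower, where 1262 and 1595 of 14331 genes were called. Without MFN2-R94Q replicate 3 the count higher was 5, where 1081 of 14326 genes were higher. Among the called members the largest fall was that of Gstt1, at 25.6%.

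The second question is how mice with MFN2-R94Q and MFN1 together differ from mice with MFN2-R94Q alone. In MFN2-R94Q:MFN1 mice 8 members were higher (Cat, Gstm7, Sod3, Gstt1, Nfe2l2, Gstt3, Gpx8 and Prdx1), where 9.55% of all genes were higher. None was lower by limma, where 3.33% of all genes were lower. At an unadjusted p under 0.05, 1 member was lower. The share of all genes at that unadjusted p was not counted, so nothing is read from this number. The median was 0.05 over the members and 0.01 over all genes. Without MFN2-R94Q:MFN1 replicate 5 the count higher was 5, where 914 of all 14329 genes tested were higher. Without MFN2-R94Q replicate 1 Gpx3 and Txnip were called lower, where 746 of 14331 genes were lower. Over all genes 74.1% of the calls were higher in MFN2-R94Q:MFN1 mice, and this share was 54.7% after quantile normalization and 59.1% after median centring.

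The third question is how mice with both transgenes differ from nTg mice. Here 1 member was higher in MFN2-R94Q:MFN1 mice (Prdx6), where 2.09% of all genes were higher. None was lower by limma, where 0.223% of all genes were lower. At an unadjusted p under 0.05, 2 members were lower, again without a share of all genes to set beside them. The median was 0.00 over the members and 0.01 over all genes. The first 2 comparisons share the 3 MFN2-R94Q libraries, so a gene that is low in those libraries counts as lower in the first and higher in the second. Their values are given side by side for each gene and not as 2 separate lines of evidence.

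**Figure D2:**
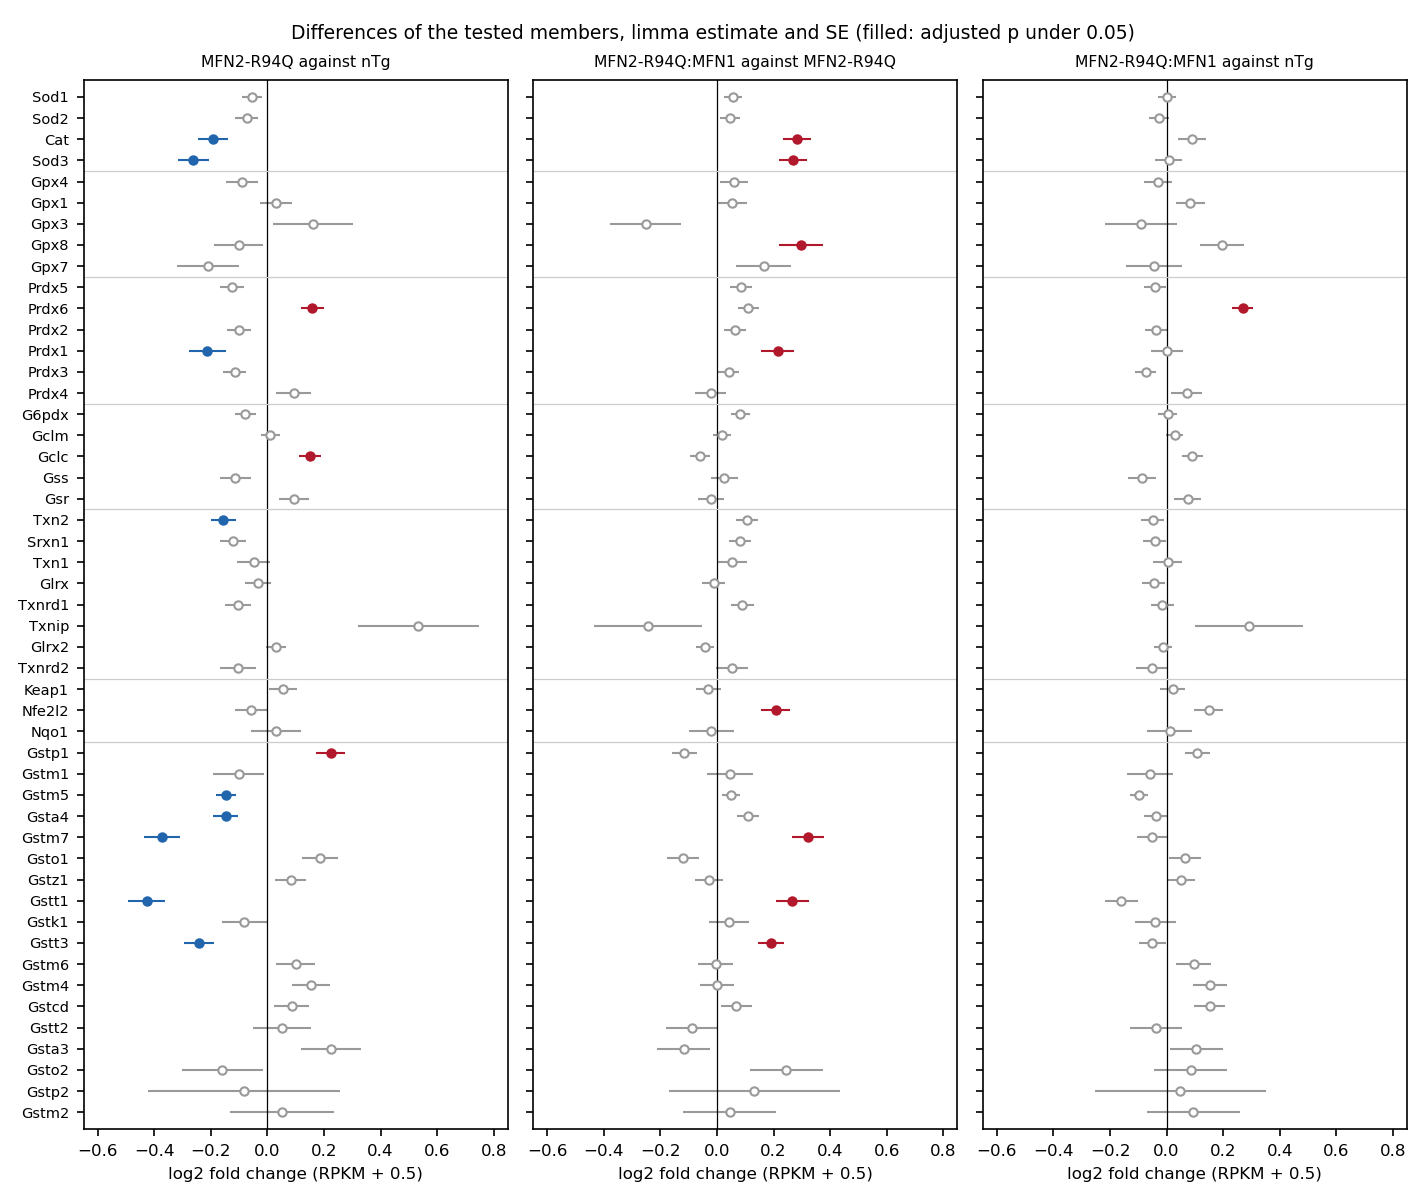
Log2 fold change with its SE for the 49 tested members in the 3 comparisons, by role. Filled red points are higher and filled blue points lower at an adjusted p under 0.05. The left panel has 3 red and 9 blue points, the middle panel 8 red, and the right panel 1 red.

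Markers of cell types moved with the groups. In bulk tissue, fewer cells of a type and less RNA per cell cannot be told apart. All 10 microglial markers were higher in MFN2-R94Q:MFN1 than in MFN2-R94Q mice, with sums of 258 to 291 RPKM in MFN2-R94Q:MFN1 mice, 185 to 205 RPKM in MFN2-R94Q mice and 180.2 to 192 RPKM in nTg mice. Of 10 oligodendrocyte markers 1 was higher and 4 were lower in MFN2-R94Q than in nTg mice, and 6 were higher in MFN2-R94Q:MFN1 than in MFN2-R94Q mice. These counts were 1, 2 and 4 without MFN2-R94Q replicate 2. Their sums were 2719 to 2801 RPKM in MFN2-R94Q:MFN1 mice, 2140.0 to 2505 RPKM in MFN2-R94Q mice and 2583 to 2774 RPKM in nTg mice. Endothelial and mural markers summed to 101 to 115 RPKM in MFN2-R94Q:MFN1 mice, 87.9 to 98.9 RPKM in MFN2-R94Q mice and 105 to 111 RPKM in nTg mice. Ependymal markers summed to 26.5 to 30.8, 21.8 to 24.3 and 25.3 to 28.2 RPKM in these groups. Of 10 endothelial and mural markers, 1 was higher and 3 were lower in MFN2-R94Q than in nTg mice. With MFN1 added, 2 were higher than in MFN2-R94Q mice. These counts were 0, 2 and 0 without MFN2-R94Q replicate 2. For 8 ependymal markers the same counts were 0, 2 and 3, and 0, 2 and 2 without that library. Like Cat, Sod3, Prdx1, Gstm7, Gstt1 and Gstt3, the oligodendrocyte, endothelial and mural, and ependymal sums were lowest in the MFN2-R94Q libraries. No marker of these lists was at 0 in all libraries. Their part in the results for the members was not tested. Against nTg, 7 of the 10 microglial markers were higher in MFN2-R94Q:MFN1 mice, where Prdx6 was also higher, and their part in that result was not tested either. Astrocyte markers, 1206 to 1234 RPKM in MFN2-R94Q:MFN1 mice, 1161 to 1294 RPKM in MFN2-R94Q mice and 1186 to 1209 RPKM in nTg mice, overlapped between the groups. Single astrocyte markers did differ, 2 higher and 2 lower in MFN2-R94Q than in nTg mice, and 3 higher and 1 lower in MFN2-R94Q:MFN1 than in MFN2-R94Q mice. With MFN2-R94Q replicate 2 left out they were 1 and 1, and 2 and 1. S1pr1 was at -0.37 (adjusted p = 0.00306) and 0.26 (adjusted p = 0.00858) in these comparisons and Agt at 0.68 (adjusted p = 0.00329) and -0.51 (adjusted p = 0.00852). Their part in the results for the members was not tested. Summed markers of neurons, meningeal fibroblasts, Schwann cells, sensory ganglia and red blood cells in MFN2-R94Q mice overlapped those of both other groups. Neuron sums were 1979 to 2017 RPKM in MFN2-R94Q:MFN1 mice, below the 2023 to 2074 RPKM of nTg mice. All 10 neuron markers were negative in that comparison, and 0 were called. Sensory ganglion sums were 31.7 to 32.92 RPKM in MFN2-R94Q:MFN1 mice, above the 27.75 to 31.61 RPKM of nTg mice. The part of both lists in the results for the members was not tested. In MFN2-R94Q:MFN1 replicate 3 the Schwann cell markers summed to 21.21 RPKM, against 9.06 to 10.29 RPKM in all other libraries, and the meningeal markers to 20.65 RPKM, against 12.78 to 14.85 RPKM. Red blood cell markers summed to 460.2 RPKM in MFN2-R94Q:MFN1 replicate 5, against 116 to 260.1 RPKM in the other libraries. Of the 10 lumbar cord markers, 3 were called lower in MFN2-R94Q than in nTg mice, and all 10 differences were negative. For MFN2-R94Q:MFN1 against nTg 9 of the 10 were negative, and 0 were called with all libraries. The part of these markers in the results for the members was not tested.

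Among the enzymes that remove superoxide and peroxide directly, catalase and the extracellular dismutase were low in MFN2-R94Q mice. Cat, the peroxisomal catalase, had 31.7, 34.3, 33.5, 33.3 and 33.6 RPKM in MFN2-R94Q:MFN1 mice, 28.2, 24.6 and 29.3 RPKM in MFN2-R94Q mice and 30.3, 31.9 and 31.6 RPKM in nTg mice. All 3 MFN2-R94Q libraries were below every other library, and the other groups overlapped. The difference was -0.19 ± 0.054 (SE) for MFN2-R94Q against nTg (adjusted p = 0.0287) and 0.28 ± 0.049 for MFN2-R94Q:MFN1 against MFN2-R94Q (adjusted p = 0.00444). Without MFN2-R94Q replicate 2, the lowest library, the first was -0.12 (adjusted p = 0.0681) and the second 0.21 (adjusted p = 0.00539). The first also lost its call without nTg replicate 2 (adjusted p = 0.095) or nTg replicate 3 (adjusted p = 0.0787). With quantile normalization, no filter, array weights or a fit of only the 2 groups it was lost too, at adjusted p up to 0.101.

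Sod3, the secreted superoxide dismutase, had 5.61, 5.51, 5.18, 5.28 and 5.81 RPKM in MFN2-R94Q:MFN1 mice, 4.67, 4.29 and 4.41 RPKM in MFN2-R94Q mice and 5.26, 5.68 and 5.39 RPKM in nTg mice. Again no MFN2-R94Q library reached any library of the other groups, which overlapped. The fall against nTg was -0.26 ± 0.054 (adjusted p = 0.00828). Against MFN2-R94Q, Sod3 was higher in MFN2-R94Q:MFN1 mice by 0.27 ± 0.049 (adjusted p = 0.00574). Both calls held with each of the 11 libraries left out in turn.

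In the main fit the 2 intracellular dismutases did not pass in any comparison. Sod1 had 255, 260.4, 247, 254 and 244 RPKM in MFN2-R94Q:MFN1 mice, 239, 249 and 239 RPKM in MFN2-R94Q mice and 255, 257 and 244 RPKM in nTg mice. For MFN2-R94Q against nTg its difference was -0.05 (95% interval -0.13 to 0.02, adjusted p = 0.296). With array weights Sod1 passed as higher in MFN2-R94Q:MFN1 than in MFN2-R94Q mice (0.07, adjusted p = 0.0447). Sod2, the dismutase of the mitochondrial matrix, had 37.4, 38.1, 36.3, 36.5 and 36.5 RPKM in MFN2-R94Q:MFN1 mice, 37.8, 33.7 and 35.9 RPKM in MFN2-R94Q mice and 37.6, 37.9 and 37.5 RPKM in nTg mice. The mitochondrial enzyme thus varied among the MFN2-R94Q libraries by more than its difference of -0.07 (95% interval -0.16 to 0.01, adjusted p = 0.22). After removal of length and GC content Sod2 passed as lower in MFN2-R94Q than in nTg mice (-0.12, adjusted p = 0.0325). Summed RPKM of the 4 genes was 320 to 338 in MFN2-R94Q:MFN1 mice, 308 to 312 in MFN2-R94Q mice and 318 to 332 in nTg mice.

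The peroxiredoxins, thiol peroxidases recycled mostly by thioredoxin, moved in both directions. Prdx1, a cytosolic peroxiredoxin, had 98.6, 101, 102, 97.8 and 99.3 RPKM in MFN2-R94Q:MFN1 mice, 95.1, 75.2 and 88.4 RPKM in MFN2-R94Q mice and 99.1, 104 and 96.0 RPKM in nTg mice. The MFN2-R94Q libraries were the lowest 3, and replicate 1 came within 1 RPKM of an nTg library. The difference was -0.21 ± 0.064 against nTg (adjusted p = 0.0387), and MFN2-R94Q:MFN1 mice were higher than MFN2-R94Q mice by 0.21 ± 0.058 (adjusted p = 0.0304). Without MFN2-R94Q replicate 2 these were -0.12 (adjusted p = 0.0798) and 0.12 (adjusted p = 0.0782). The call against nTg also ended without any 1 of the nTg libraries or of MFN2-R94Q:MFN1 replicates 1, 2, 3 and 5, at adjusted p up to 0.131. The call with MFN1 also ended without MFN2-R94Q:MFN1 replicate 2, 3 or 5, at adjusted p up to 0.0622 among these.

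Prdx6, which uses glutathione in place of thioredoxin, was the member that differed from nTg in both transgenic groups. It had 109.5, 111, 113, 106 and 114 RPKM in MFN2-R94Q:MFN1 mice, 99.6, 108 and 99.3 RPKM in MFN2-R94Q mice and 89.3, 91.3 and 94.3 RPKM in nTg mice. Every transgenic library was above every nTg library, and MFN2-R94Q replicate 2 lay within the range of MFN2-R94Q:MFN1. The rise over nTg was 0.27 ± 0.037 in MFN2-R94Q:MFN1 mice (adjusted p = 0.00123), a call that held with each library left out. In MFN2-R94Q mice it was 0.16 ± 0.041 (adjusted p = 0.0201), and that call ended without MFN2-R94Q replicate 2 (0.12, adjusted p = 0.0589), nTg replicate 1 (adjusted p = 0.0712) or nTg replicate 2 (adjusted p = 0.0637). It also ended in a fit of only the 2 groups compared (adjusted p = 0.0692). Between the transgenic groups the difference was 0.11 ± 0.037 (adjusted p = 0.0624). It passed without MFN2-R94Q replicate 2 (0.15, adjusted p = 0.0227), without MFN2-R94Q:MFN1 replicate 4 (0.13, adjusted p = 0.0474) and with array weights (0.15, adjusted p = 0.001).

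The remaining tested peroxiredoxins did not pass in the main fit. Prdx5, found in mitochondria, peroxisomes and cytosol, had 166, 178, 172, 179 and 167 RPKM in MFN2-R94Q:MFN1 mice, 154, 168 and 165 RPKM in MFN2-R94Q mice and 176, 183 and 173 RPKM in nTg mice. No MFN2-R94Q library reached an nTg library, and the difference was -0.13 ± 0.043 (adjusted p = 0.0588). Without MFN2-R94Q replicate 2 it was -0.15 (adjusted p = 0.0468), and with array weights it was -0.11 (adjusted p = 0.0335). For Prdx2, Prdx3, the mitochondrial form, and Prdx4, the form of the endoplasmic reticulum, differences against nTg in MFN2-R94Q mice were -0.10, -0.12 and 0.09. Prdx3 passed as lower there without MFN2-R94Q:MFN1 replicate 4 (adjusted p = 0.0408) or with array weights (-0.09, adjusted p = 0.0463). Summed over the 7 peroxiredoxins, RPKM was 521 to 542 in MFN2-R94Q:MFN1 mice, 491 to 499 in MFN2-R94Q mice and 512 to 535 in nTg mice. On this sum the MFN2-R94Q libraries lay below all others, although Prdx6 itself was higher in them than in nTg.

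**Figure D3:**
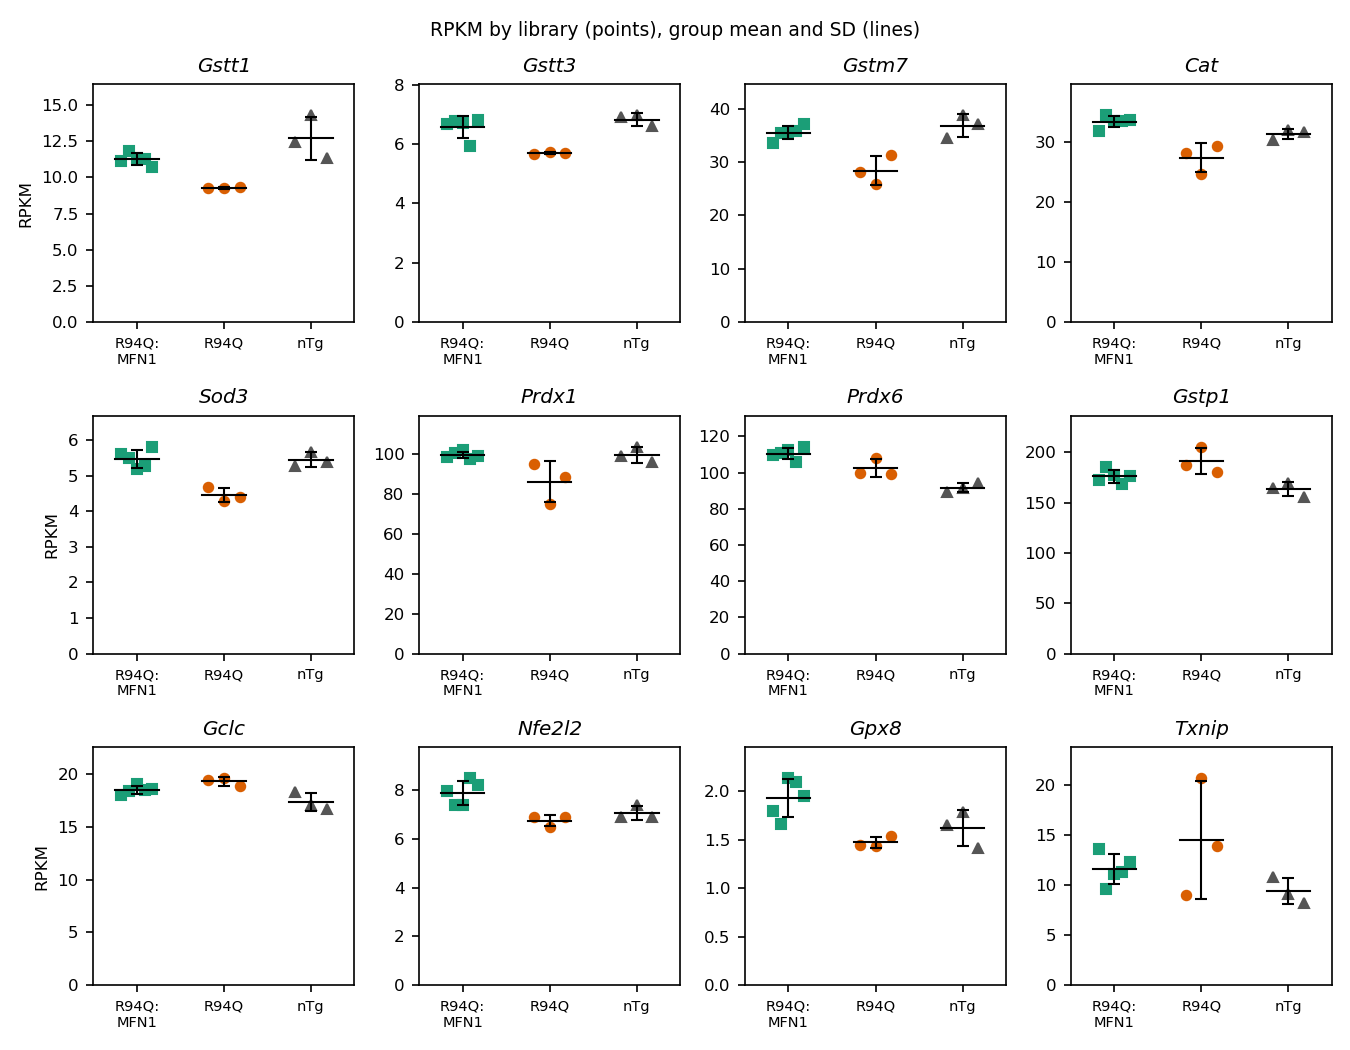
RPKM of 12 members by library, with axes from 0. In each panel R94Q:MFN1 stands for MFN2-R94Q:MFN1 (5 libraries) and R94Q for MFN2-R94Q (3), beside nTg (3), and lines give the mean and SD. MFN2-R94Q libraries are the lowest for Gstt1, Gstt3, Gstm7, Cat, Sod3 and Prdx1, and the nTg libraries are the lowest for Prdx6.

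Of the glutathione peroxidases, 1 of the 5 tested passed in 1 comparison. It was higher in MFN2-R94Q:MFN1 than in MFN2-R94Q mice, where 9.55% of all genes were higher. Gpx8, a peroxidase of the endoplasmic reticulum, had 1.79, 1.67, 2.13, 2.10 and 1.95 RPKM in MFN2-R94Q:MFN1 mice, 1.44, 1.43 and 1.54 RPKM in MFN2-R94Q mice and 1.66, 1.78 and 1.42 RPKM in nTg mice. The MFN2-R94Q:MFN1 and MFN2-R94Q libraries did not overlap, and nTg overlapped both. The rise over MFN2-R94Q was 0.30 ± 0.078 (adjusted p = 0.027), at a level under 3 RPKM in every library. It ended without MFN2-R94Q:MFN1 replicate 3, 4 or 5 or MFN2-R94Q replicate 1 or 2, at adjusted p up to 0.0838. Its highest library was MFN2-R94Q:MFN1 replicate 3, where the Schwann cell and meningeal markers were also highest, and their part in the result was not tested. Against nTg the differences were 0.20 in MFN2-R94Q:MFN1 mice (adjusted p = 0.248) and -0.10 in MFN2-R94Q mice (adjusted p = 0.436).

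Gpx4, which reduces lipid hydroperoxides in membranes and guards against ferroptosis, was the most abundant. It had 138, 154, 139.8, 147 and 147 RPKM in MFN2-R94Q:MFN1 mice, 129.6, 152 and 136 RPKM in MFN2-R94Q mice and 149, 149 and 146 RPKM in nTg mice. MFN2-R94Q replicate 2 was above all nTg libraries and the other MFN2-R94Q libraries were below them. The difference against nTg was -0.09 ± 0.055 (adjusted p = 0.268) with all libraries and -0.16 (adjusted p = 0.0427) without that library. Gpx1, the main cytosolic form, differed by 0.03 (95% interval -0.09 to 0.15). Gpx3, the secreted form, had 14.7 RPKM in MFN2-R94Q replicate 2, against 8.38 and 11.1 RPKM in the other MFN2-R94Q libraries and 8.83 to 10.7 RPKM in nTg mice. The difference of Gpx3 was 0.16 ± 0.141 (adjusted p = 0.444). It was -0.03 (adjusted p = 0.851) without MFN2-R94Q replicate 2 and 0.35 (adjusted p = 0.0331) without MFN2-R94Q replicate 1.

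The genes of glutathione synthesis and recycling gave 1 call among 5, higher in MFN2-R94Q than in nTg mice, where 7.5% of all genes were higher. Gclc, the catalytic subunit of the rate-limiting glutamate-cysteine ligase, had 18.1, 18.4, 19.0, 18.5 and 18.6 RPKM in MFN2-R94Q:MFN1 mice, 19.5, 19.6 and 18.9 RPKM in MFN2-R94Q mice and 18.3, 17.1 and 16.7 RPKM in nTg mice. The MFN2-R94Q libraries lay above all nTg libraries, and MFN2-R94Q:MFN1 libraries overlapped both. Gclc was higher in MFN2-R94Q than in nTg mice by 0.15 ± 0.040 (adjusted p = 0.0227). The call ended without MFN2-R94Q replicate 2 (adjusted p = 0.0537), nTg replicate 2 (adjusted p = 0.08) or nTg replicate 3 (adjusted p = 0.0834). It also ended in a fit of only the 2 groups compared (adjusted p = 0.095).

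Gclm, the modifier subunit of the same enzyme, had 21.2, 21.5, 21.7, 22.1 and 21.0 RPKM in MFN2-R94Q:MFN1 mice, 21.5, 21.0 and 21.2 RPKM in MFN2-R94Q mice and 21.4, 21.5 and 20.3 RPKM in nTg mice. All groups overlapped, and the difference of MFN2-R94Q against nTg was 0.01 (95% interval -0.07 to 0.09). G6pdx, which makes NADPH in the pentose phosphate pathway, had 22.6, 23.8, 22.7, 23.1 and 23.5 RPKM in MFN2-R94Q:MFN1 mice, 21.3, 23.0 and 21.2 RPKM in MFN2-R94Q mice and 23.1, 23.2 and 22.9 RPKM in nTg mice. Its overlap with nTg came from MFN2-R94Q replicate 2 alone. With it, G6pdx differed by -0.08 (adjusted p = 0.163) against nTg. Without it, the difference was -0.11 (adjusted p = 0.0486), and MFN2-R94Q:MFN1 mice were higher than MFN2-R94Q mice by 0.12 (adjusted p = 0.0428). Gss, glutathione synthetase, and Gsr, glutathione reductase, differed from nTg by -0.11 and 0.09 in MFN2-R94Q mice and did not pass.

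In the thioredoxin and glutaredoxin system, 1 of 8 genes passed, lower in MFN2-R94Q than in nTg mice, where 10.4% of all genes were lower. Txn2, the mitochondrial thioredoxin, had 50.7, 53.4, 50.8, 52.3 and 55.3 RPKM in MFN2-R94Q:MFN1 mice, 45.8, 50.3 and 50.1 RPKM in MFN2-R94Q mice and 54.1, 55.4 and 53.4 RPKM in nTg mice. The MFN2-R94Q libraries were again the lowest 3. The difference was -0.16 ± 0.044 against nTg (adjusted p = 0.028), and the call ended without MFN2-R94Q replicate 1 (-0.11, adjusted p = 0.0732) or nTg replicate 1 (adjusted p = 0.0663), 2 (adjusted p = 0.0982) or 3 (adjusted p = 0.0513). It also ended with quantile normalization (adjusted p = 0.104) or a fit of only the 2 groups compared (adjusted p = 0.0781). MFN2-R94Q:MFN1 mice were at 0.11 ± 0.039 over MFN2-R94Q mice (adjusted p = 0.0909). Its reductase Txnrd2 was at -0.10 for MFN2-R94Q against nTg (adjusted p = 0.265), and Txn1 and Txnrd1, the cytosolic pair, were at -0.05 and -0.10.

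Txnip, which binds thioredoxin and inhibits it, varied widely among the MFN2-R94Q libraries. It had 13.5, 9.57, 11.1, 11.3 and 12.3 RPKM in MFN2-R94Q:MFN1 mice, 8.94, 20.6 and 13.9 RPKM in MFN2-R94Q mice and 10.8, 9.12 and 8.21 RPKM in nTg mice. MFN2-R94Q replicate 1 lay within the nTg range and replicate 2 was the highest of all. The difference of 0.53 (95% interval 0.07 to 1.0) did not pass (adjusted p = 0.0994). Without MFN2-R94Q replicate 1 it was 0.83 (adjusted p = 0.0061), and MFN2-R94Q:MFN1 mice were then lower than MFN2-R94Q mice at -0.54 (adjusted p = 0.0288). With replicate 2 left out instead, these were 0.25 (adjusted p = 0.335) and 0.04 (adjusted p = 0.899). Srxn1, sulfiredoxin, which restores overoxidized peroxiredoxins, had 37.7, 38.3, 36.2, 36.6 and 37.9 RPKM in MFN2-R94Q:MFN1 mice, 37.4, 33.5 and 34.9 RPKM in MFN2-R94Q mice and 39.4, 39.5 and 36.5 RPKM in nTg mice. Its difference of -0.12 ± 0.045 between MFN2-R94Q and nTg did not pass (adjusted p = 0.0774). It passed without MFN2-R94Q replicate 1 (-0.16, adjusted p = 0.0226) or nTg replicate 3 (-0.16, adjusted p = 0.0477).

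None of the NRF2 regulators passed between MFN2-R94Q and nTg mice. Nfe2l2 had 7.97, 7.42, 7.41, 8.49 and 8.21 RPKM in MFN2-R94Q:MFN1 mice, 6.90, 6.497 and 6.89 RPKM in MFN2-R94Q mice and 6.89, 7.41 and 6.90 RPKM in nTg mice. MFN2-R94Q:MFN1 did not overlap MFN2-R94Q, and nTg overlapped both. MFN2-R94Q:MFN1 mice were higher than MFN2-R94Q mice by 0.21 ± 0.051 (adjusted p = 0.0208), and by 0.18 without MFN2-R94Q replicate 2 (adjusted p = 0.0758). Against nTg the difference was 0.15 (95% interval 0.04 to 0.26, adjusted p = 0.178) in MFN2-R94Q:MFN1 mice and -0.06 (95% interval -0.18 to 0.06, adjusted p = 0.495) in MFN2-R94Q mice.

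Keap1 had 12.7, 13.2, 12.4, 12.8 and 12.9 RPKM in MFN2-R94Q:MFN1 mice, 12.3, 14.3 and 12.8 RPKM in MFN2-R94Q mice and 12.7, 12.5 and 12.6 RPKM in nTg mice. Nqo1, a quinone reductase often used as a readout of NRF2, had 5.93, 6.62, 6.82, 6.78 and 6.73 RPKM in MFN2-R94Q:MFN1 mice, 5.78, 7.67 and 6.67 RPKM in MFN2-R94Q mice and 5.89, 7.13 and 6.58 RPKM in nTg mice. All 3 groups overlapped for both genes. Nqo1 differed by 0.03 (95% interval -0.16 to 0.22) for MFN2-R94Q against nTg and by -0.02 (95% interval -0.19 to 0.15) for MFN2-R94Q:MFN1 against MFN2-R94Q. Keap1 differed by 0.05 and -0.03 in these comparisons.

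The glutathione S-transferases conjugate glutathione to electrophiles. Of 22 members 18 were tested, and in MFN2-R94Q mice 1 was higher and 5 were lower than in nTg mice, while 3 were higher in MFN2-R94Q:MFN1 than in MFN2-R94Q mice. Of all genes 7.5% and 10.4% were higher and lower in the first comparison, and 9.55% were higher in the second. A pair of theta-class genes separated MFN2-R94Q libraries from all others. The theta genes Gstt3, Gstt1, Gstt4 and Gstt2 lie next to each other on chromosome 10, from 75774115 to 75837424 (GRCm38, GENCODE M21), all on the minus strand. Gstt1 had 11.1, 11.8, 11.4, 11.3 and 10.7 RPKM in MFN2-R94Q:MFN1 mice, 9.25, 9.25 and 9.34 RPKM in MFN2-R94Q mice and 12.5, 14.3 and 11.3 RPKM in nTg mice. All MFN2-R94Q libraries lay within 0.1 RPKM of each other and below every other library. The difference was -0.43 ± 0.065 against nTg (adjusted p = 0.00306), and MFN2-R94Q:MFN1 mice were higher than MFN2-R94Q mice by 0.27 ± 0.058 (adjusted p = 0.013). The difference of MFN2-R94Q:MFN1 from nTg was -0.16 (95% interval -0.29 to -0.03, adjusted p = 0.205).

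Gstt3, its neighbour, had 6.69, 6.77, 6.69, 5.94 and 6.82 RPKM in MFN2-R94Q:MFN1 mice, 5.66, 5.74 and 5.69 RPKM in MFN2-R94Q mice and 6.92, 6.96 and 6.59 RPKM in nTg mice. The MFN2-R94Q libraries were the lowest 3, with MFN2-R94Q:MFN1 replicate 4 next. The differences were -0.24 ± 0.053 for MFN2-R94Q against nTg (adjusted p = 0.0102) and 0.19 ± 0.047 for MFN2-R94Q:MFN1 against MFN2-R94Q (adjusted p = 0.0221). The second ended without MFN2-R94Q:MFN1 replicate 2 (adjusted p = 0.0531) or 5 (adjusted p = 0.0524). Gstt2, the other tested theta gene, was at 0.05 and -0.09 in these comparisons and did not pass. Summed theta RPKM was 19.0 to 21.0 in MFN2-R94Q:MFN1 mice, 16.8 to 17.5 in MFN2-R94Q mice and 19.9 to 23.6 in nTg mice.

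The mu-class genes lie together on chromosome 3, from Gstm5 at 107895821 to Gstm4, which ends at 108044894. Gstm7 had 33.6, 35.5, 35.6, 35.8 and 37.1 RPKM in MFN2-R94Q:MFN1 mice, 28.1, 25.8 and 31.2 RPKM in MFN2-R94Q mice and 34.5, 38.7 and 37.2 RPKM in nTg mice. Its MFN2-R94Q libraries were below all others, at -0.37 ± 0.062 against nTg (adjusted p = 0.00336), and MFN2-R94Q:MFN1 mice were higher than MFN2-R94Q mice by 0.32 ± 0.056 (adjusted p = 0.00448). Without MFN2-R94Q replicate 2 these were -0.31 (adjusted p = 0.00597) and 0.26 (adjusted p = 0.0118). Gstm5 had 98.2, 103, 102, 105 and 105 RPKM in MFN2-R94Q:MFN1 mice, 98.2, 99.1 and 100.3 RPKM in MFN2-R94Q mice and 110.3, 114 and 105 RPKM in nTg mice. It was lower in MFN2-R94Q than in nTg mice, at -0.15 ± 0.036 (adjusted p = 0.0165), without overlap, and the call ended without nTg replicate 2 (-0.12, adjusted p = 0.0749). Quantile normalization (-0.08, adjusted p = 0.0933), removal of length and GC content (adjusted p = 0.0534) and a fit of only the 2 groups (adjusted p = 0.061) ended it too. Unlike Gstm7, Gstm5 was at 0.05 ± 0.032 for MFN2-R94Q:MFN1 against MFN2-R94Q (adjusted p = 0.343), and this difference between the 2 genes was not tested. Gstm1, the most abundant mu gene, ranged from 149 to 176 RPKM in MFN2-R94Q:MFN1 mice, 146 to 168 in MFN2-R94Q mice and 146 to 196 in nTg mice. Gstm2, Gstm4 and Gstm6 were at 0.05, 0.15 and 0.10 for MFN2-R94Q against nTg and did not pass in the main fit. Gstm4 passed after removal of length and GC content (0.19, adjusted p = 0.0488).

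Gstp1 was the transferase that was higher in MFN2-R94Q mice. It had 173, 186, 177, 168 and 177 RPKM in MFN2-R94Q:MFN1 mice, 187, 205 and 181 RPKM in MFN2-R94Q mice and 165, 169.7 and 156 RPKM in nTg mice. The rise over nTg was 0.22 ± 0.050 (adjusted p = 0.0113), with no overlap, and the call held with each library left out. It ended in a fit of only the 2 groups compared (adjusted p = 0.0507). For MFN2-R94Q:MFN1 against MFN2-R94Q Gstp1 was at -0.12 ± 0.045 and did not pass (adjusted p = 0.109), and MFN2-R94Q:MFN1 mice were at 0.11 over nTg (adjusted p = 0.271). Gsta4, an alpha-class enzyme that clears the lipid peroxidation product 4-hydroxynonenal, had 43.2, 43.6, 44.5, 44.1 and 42.6 RPKM in MFN2-R94Q:MFN1 mice, 40.3, 41.5 and 39.4 RPKM in MFN2-R94Q mice and 44.0, 48.3 and 42.3 RPKM in nTg mice. The MFN2-R94Q libraries were below all others. It was lower in MFN2-R94Q than in nTg mice, at -0.15 ± 0.044 (adjusted p = 0.0354), a call that ended without MFN2-R94Q replicate 1 (adjusted p = 0.0591) or 3 (adjusted p = 0.0913), or nTg replicate 1 (adjusted p = 0.0619) or 2 (-0.09, adjusted p = 0.137). The call also ended with no filter, quantile normalization, removal of length and GC content or a fit of only the 2 groups, at adjusted p up to 0.122. The omega, zeta and kappa genes and Gstcd did not pass in the main fit, with differences from nTg between -0.16 and 0.19 in MFN2-R94Q mice. Gsto1 passed as higher there with quantile normalization (adjusted p = 0.0444), removal of length and GC content (adjusted p = 0.0244) or without MFN2-R94Q replicate 3 (adjusted p = 0.0263). Gstz1 passed as higher with array weights (adjusted p = 0.0293) or without MFN2-R94Q replicate 1 (adjusted p = 0.0353). The mu, theta, pi and alpha transferases are families of similar copies, and the sources used here do not say how reads shared by several genes were assigned. Their split between neighbours is therefore uncertain.

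Leaving out MFN2-R94Q replicate 2 ended the calls of Prdx1, Cat, Gclc and Prdx6 against nTg, and those of Prdx1, Nfe2l2 and Gpx8 for MFN2-R94Q:MFN1 against MFN2-R94Q. It added calls for G6pdx, Gpx4 and Prdx5, lower in MFN2-R94Q than in nTg mice, and for Prdx6 and G6pdx, higher in MFN2-R94Q:MFN1 than in MFN2-R94Q mice. Calls of Gstt1, Gstt3, Gstm7 and Sod3 remained in both comparisons, as did that of Cat for MFN2-R94Q:MFN1 against MFN2-R94Q. In that comparison Gstt3 was just under the threshold without this library (0.20, adjusted p = 0.0499).

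**Figure D4:**
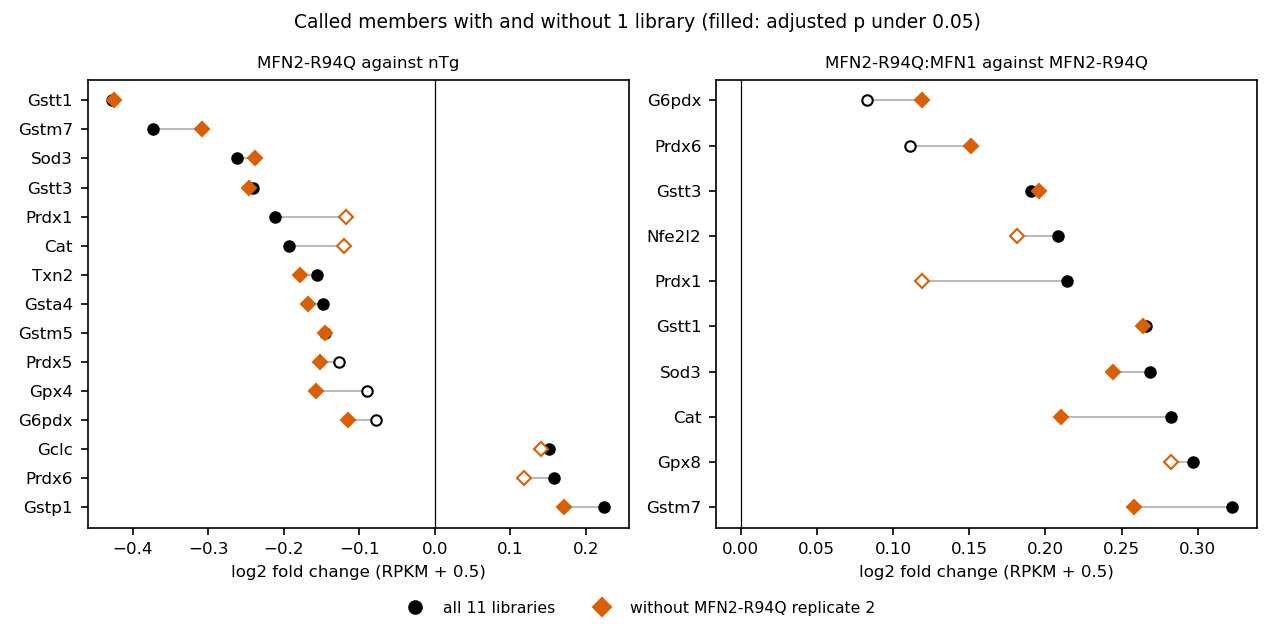
Log2 fold change of the members called with or without MFN2-R94Q replicate 2, for MFN2-R94Q against nTg (left) and MFN2-R94Q:MFN1 against MFN2-R94Q (right). Black circles use all 11 libraries, orange diamonds leave that library out, and filled symbols have an adjusted p under 0.05. Prdx1 is at -0.21 with all libraries and -0.12 without that library on the left, and at 0.21 and 0.12 on the right.

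Other genes of the pathway were counted from 2 lists of non-members. Of 27 further NRF2 partners and targets, 26 were tested. In MFN2-R94Q mice 1 was higher and 6 were lower than in nTg mice, where 7.5% of all genes were higher and 10.4% lower. Leaving out MFN2-R94Q replicate 2 made these counts 0 and 3, where 4.31% and 6.98% of all genes were called. The 1 higher gene, Bach1, a repressor that competes with NRF2, was at 0.20 ± 0.054 (adjusted p = 0.0252), and at 0.16 (adjusted p = 0.0829) without that library. The lower gene with the smallest p was Taldo1 of the pentose phosphate pathway, at -0.34 ± 0.053 (adjusted p = 0.00306), with 73.6 ± 1.60 RPKM in MFN2-R94Q:MFN1 mice, 57.7 ± 4.82 RPKM in MFN2-R94Q mice and 73.1 ± 3.39 RPKM in nTg mice. Nqo2 was at -0.28 (adjusted p = 0.0187), and at -0.23 (adjusted p = 0.0627) without MFN2-R94Q replicate 2. Me1, the NADPH-making malic enzyme, was at -0.22 (adjusted p = 0.0198), and at -0.14 (adjusted p = 0.033) without it. Tkt, transketolase, was at -0.15 (adjusted p = 0.0217). Slc7a11, the cystine transporter subunit, had the largest fall, at -0.45 (adjusted p = 0.0307), and was at -0.32 (adjusted p = 0.104) without that library. In MFN2-R94Q:MFN1 mice 6 were higher than in MFN2-R94Q mice, and 4 without MFN2-R94Q replicate 2, where 9.55% and 5.08% of all genes were higher. Among them, Taldo1 was at 0.35 (adjusted p = 0.0013), Me1 at 0.26 (adjusted p = 0.00803) and Tkt at 0.14 (adjusted p = 0.0194). The ferritin light chain Ftl1 was at 0.26 ± 0.031 (adjusted p = 0.000682), and it was also the 1 gene of the list that passed against nTg, at 0.19 (adjusted p = 0.00469). In the 3 comparisons, taken in the order above, the list's median was -0.08, 0.06 and 0.04.

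Of 40 further glutathione and redox genes, 39 were tested, and in MFN2-R94Q mice 8 were higher and 4 lower than in nTg mice, where 7.5% of all genes were higher and 10.4% lower. They were 4 and 2, of the 38 then tested, without MFN2-R94Q replicate 2, where 4.31% and 6.98% of all genes were called. Idh2, the mitochondrial NADP-dependent isocitrate dehydrogenase, had 17.7 ± 0.590 RPKM in MFN2-R94Q:MFN1 mice, 21.4 ± 3.65 RPKM in MFN2-R94Q mice and 15.1 ± 1.38 RPKM in nTg mice, at 0.48 ± 0.092 for MFN2-R94Q against nTg (adjusted p = 0.00587). Ggt5 was at 0.46 (adjusted p = 0.011) and Pon2 at 0.23 (adjusted p = 0.0139). The methionine sulfoxide reductase Msrb2 was lower at -0.26 (adjusted p = 0.00858). In MFN2-R94Q:MFN1 mice 2 were higher and 2 lower than in MFN2-R94Q mice, where 9.55% of all genes were higher and 3.33% lower. These were 3 and 1 without MFN2-R94Q replicate 2, where 5.08% and 1.08% of all genes were called. Sesn1, a stress-induced sestrin, was lower at -0.40 ± 0.087 (adjusted p = 0.013), and at -0.24 (adjusted p = 0.00609) without that library. Sesn3 was lower at -0.16 (adjusted p = 0.0295), and at -0.14 (adjusted p = 0.101) without it. Idh1, the cytosolic counterpart of Idh2, was higher at 0.21 (adjusted p = 0.0276), and at 0.13 (adjusted p = 0.0961) without it. Park7 was higher at 0.12 (adjusted p = 0.0496).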

How the data were processed

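RNA was extracted with TRIzol and the PureLink kit and made into stranded mRNA libraries with the TruSeq kit, per the labels' protocols. The authors deposited RPKM values, per the table's 1 column for each library. The submitters' processing notes name TopHat, without a version, Partek 7.17.0918 and build mm10. The annotation and the handling of strand and of shared reads are not stated there. Each of the 11 libraries was taken as 1 mouse, as the design counts mice. No batch, sex or pairing is labelled, and replicate numbers follow the order of the records.

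Depth was recovered from 283 short RNA genes under 160 bases, whose low values are whole multiples of 1 read. Between 96.4% and 100.0% of the values of up to 5 reads lay within 0.02 of a whole number, and depth was 30.5 to 71.8 M reads. No library pair within a group was alike enough to be 1 library.

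The test was limma 3.58.1 (R 4.3.3) with a trended eBayes on log2(RPKM + 0.5), which understates changes of low genes. All libraries entered 1 fit with genotype as the only term, over the 14347 genes that reached 0.5 RPKM in 3 or more libraries. Tests were two-sided, and adjusted p-values are Benjamini-Hochberg over all these genes, with calls under 0.05. Intervals are limma's 95% intervals for 1 gene, not adjusted.

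Members, roles, pathway lists and markers were chosen with earlier results of these data known. Values in every library are given for members called in at least 1 comparison, for 10 listed genes whatever their values, and for the most abundant member of each role. From each pathway list, up to 4 called genes with the smallest p in each comparison are named. Bach1, Slc7a11, S1pr1, Agt, and members described beyond these, were picked with their values known. Positions are from GENCODE M21 and promoters from RefSeq, both on GRCm38. Python 3.11.15 with pandas 2.3.3 and matplotlib 3.10.9 handled tables and figures.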

Additional observations from a re-analysis of the deposited data

Results flagged for a closer look

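Of the 24 named members, each tested over its 5 MFN2-R94Q:MFN1 libraries with Dixon's criterion, 2 had a library far from the rest. Chance alone gives about 1 in 20 such groups. Gstt3 was at 5.935 RPKM in MFN2-R94Q:MFN1 replicate 4, and the other libraries of that group lay between 6.689 and 6.821 RPKM. Nqo1 was at 5.932 RPKM in MFN2-R94Q:MFN1 replicate 1, and the other libraries of that group lay between 6.619 and 6.82 RPKM. The MFN2-R94Q and nTg groups, of 3 libraries each, are too small for this criterion.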

How the results depend on the processing

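No paired analysis was possible because the labels number no replicates. With 1 library left out at a time, members higher in MFN2-R94Q than in nTg mice numbered 1 to 6 (3 with all libraries) and members lower 4 to 10 (9 with all). Over all genes these runs had 465 to 1262 higher and 748 to 1595 lower. For MFN2-R94Q:MFN1 against MFN2-R94Q these runs gave 5 to 9 higher (8 with all) and 0 to 2 lower (0 with all). There 727 to 1471 of all genes were higher and 155 to 746 lower. For MFN2-R94Q:MFN1 against nTg the runs gave 1 higher and 0 lower throughout, where 180 to 478 and 9 to 111 of all genes were called. For MFN2-R94Q against nTg, calls over all genes, higher then lower, are in brackets. The main fit had 1076 and 1485 of 14347. Quantile normalization gave 4 higher and 4 lower members (1267 and 1278). Removal of length and GC content by loess gave 5 higher and 8 lower (1068 and 1609 of 14221). Array weights gave 5 higher and 13 lower (1667 and 2011). No filter on low values gave 4 higher and 6 lower (874 and 1082 of 20839). A fit of only the 2 groups compared gave 0 higher and 4 lower there (262 and 582). A threshold of 0.01 gave 0 higher and 3 lower (273 and 498). An added limit of 1.2-fold gave 0 higher and 2 lower (519 and 702). For MFN2-R94Q:MFN1 against MFN2-R94Q, array weights gave 14 higher and 1 lower (Gpx3), where 2248 and 1130 of all genes were called. Quantile normalization and the loess each gave 1 lower (Gstp1), where 833 and 499 of all genes were lower. In this comparison the 0.01 threshold gave 3 higher and the 1.2-fold limit 5, where 363 and 711 of all genes were higher. Between MFN2-R94Q and nTg, quantile normalization ended the calls of Cat, Gsta4, Gstm5, Prdx1 and Txn2, and the loess those of Gsta4 and Gstm5. Dropping the filter ended those of Cat, Gsta4 and Prdx1, and array weights that of Cat. The fit of only the 2 groups ended those of Cat, Gclc, Gsta4, Gstm5, Gstp1, Prdx1, Prdx6 and Txn2. Calls were also added between MFN2-R94Q and nTg. Quantile normalization and the loess each added Gsto1, higher, and the loess also added Gstm4, higher, and Sod2, lower. Array weights added Gstz1 and Txnip, higher, and G6pdx, Gpx4, Prdx3, Prdx5 and Srxn1, lower. For MFN2-R94Q:MFN1 against MFN2-R94Q, no filter ended the calls of Prdx1 and Gpx8, and quantile normalization and the 2-group fit that of Prdx1. Array weights there added G6pdx, Gpx4, Gsta4, Prdx6, Sod1 and Srxn1 as higher. The cause was not tested. No difference of a named member that was called changed sign in any of these runs. Groups of 3 libraries, of which MFN2-R94Q replicate 2 stood apart, limit all comparisons.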
